A study of Mus musculus with 9 samples.

Results

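A set of 9 genes that mark the projection neurons of the striatum was examined in RNA from the medial prefrontal cortex (mPFC), a cortical tissue that is bordered by white matter and lies in front of the striatum. The genes were Drd1, Drd2, Adora2a, Ppp1r1b, Rgs9, Penk, Pdyn, Tac1 and Pde10a, picked by gene symbol, and all 9 were found among the 24532 genes listed for every mouse. All 9 also averaged at least 30 reads per mouse, the filter for testing that 14370 genes passed. The mice were males on the C57BL/6J background, 3 per group with 1 library per mouse. CT mice were wild type and stayed unstressed in the home cage. WT_ST mice were wild type and were restrained for 6 h a day over 21 days. KO_ST mice were Fkbp5-/-, homozygous for the targeted allele, and went through the same restraint. The Fkbp5-/- line had been backcrossed to C57BL/6J for 10 generations, and both genotypes came from heterozygous matings. The methods describe the housing of all mice as in a single cage. The sample labels gave an age of 11 weeks and the methods one of 8 weeks. An unstressed Fkbp5-/- group was not analysed here. The question put to the data was how far the level of these genes differed from mouse to mouse and between groups, as a check of how evenly the tissue had been dissected.

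The striatum is built mainly of GABA-releasing medium spiny projection neurons, which fall into a pair of classes. Neurons of the direct pathway carry the D1 dopamine receptor (Drd1) and make the peptide precursors for dynorphin (Pdyn) and substance P (Tac1). Neurons of the indirect pathway carry the D2 dopamine receptor (Drd2) and a receptor for adenosine (Adora2a), and make the precursor for enkephalin (Penk). Both classes hold DARPP-32 (Ppp1r1b), which inhibits protein phosphatase 1 once protein kinase A has phosphorylated it, the regulator of G protein signalling RGS9 (Rgs9), which speeds the shut-off of receptor signalling, and phosphodiesterase 10A (Pde10a), which breaks down cyclic nucleotides. None of the genes is silent in cortex. D1 receptors and DARPP-32 are found in deep cortical pyramidal neurons, and the 3 peptide precursors are made by sets of cortical interneurons and other cortical cells, so a value above 0 in cortex need not come from striatal cells.

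The RefSeq sequence just before the annotated start was matched for 6 of the 9 markers. It is shown, 5′ to 3′, for the 3 markers that were called in 2 comparisons each (a fold change above 1.2 with p under 0.05 before adjustment), with matches to 3 short motifs in capitals. The motifs, searched on both strands, were the core of the cyclic AMP response element (TGACG or CGTCA), the GC box (GGGCGG or CCGCCC) and the core of the TATA box (TATAAA or TTTATA). Drd2 is read from chr9:49340153-49340359 on the plus strand, Rgs9 from chr11:109298182-109298431 on the minus strand and Tac1 from chr6:7554811-7555060 on the plus strand (GRCm38.p6).
Drd2: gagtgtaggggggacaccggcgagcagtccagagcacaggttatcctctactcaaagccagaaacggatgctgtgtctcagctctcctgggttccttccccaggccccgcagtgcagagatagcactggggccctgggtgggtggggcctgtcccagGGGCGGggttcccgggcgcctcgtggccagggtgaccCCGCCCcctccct
Rgs9: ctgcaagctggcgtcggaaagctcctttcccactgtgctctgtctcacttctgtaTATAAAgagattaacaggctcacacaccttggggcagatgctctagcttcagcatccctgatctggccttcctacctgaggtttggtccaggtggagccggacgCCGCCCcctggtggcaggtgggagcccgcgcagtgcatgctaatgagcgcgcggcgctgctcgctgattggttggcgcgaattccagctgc
Tac1: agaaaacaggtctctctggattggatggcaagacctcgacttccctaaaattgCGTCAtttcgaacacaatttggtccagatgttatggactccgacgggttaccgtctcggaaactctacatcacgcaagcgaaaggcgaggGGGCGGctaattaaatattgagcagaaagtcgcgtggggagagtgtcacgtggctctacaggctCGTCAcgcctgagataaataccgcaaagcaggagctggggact
The Drd2 stretch holds 2 GC boxes and no other match, that of Rgs9 1 GC box and 1 TATA core, and that of Tac1 2 cyclic AMP element cores and 1 GC box, and no motif overlapped another. Of 32851 promoter windows of 300 bases, 20.8% held the cyclic AMP element core, 35.7% the GC box and 13.6% the TATA core, each window covering the 250 bases before and the 50 after a start. The matches describe the letters in these stretches only.

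Each library had between 43778471 and 61150128 reads assigned to genes. Fkbp5, the targeted gene, had an FPKM (a fragment count scaled for transcript length and sequencing depth) of 3.59 to 4.69 in the KO_ST mice, 6.46 to 7.61 in the CT mice and 9.47 to 10.3 in the WT_ST mice, with no overlap between the groups. Fkbp5 transcript was thus reduced and not absent in KO_ST, with 625 to 907 reads per mouse. All 12 listed genes of cortical pyramidal neurons, the tissue's own cell type, were tested, from Slc17a7, the vesicular glutamate transporter of these cells, at 581 to 677 FPKM down to Foxp2, a transcription factor of deep layers, at 2.23 to 3.02. The 9 striatal markers were all far below Slc17a7, and several were above the lowest of these pyramidal genes. Ppp1r1b lay between 24.9 and 41.6 FPKM, Penk between 12.5 and 33.5, Tac1 between 9.94 and 15.6, Pde10a between 7.91 and 13.6, Pdyn between 7.10 and 9.99, Rgs9 between 5.36 and 11.0 and Drd1 between 2.70 and 4.70. Drd2 and Adora2a, the 2 receptors of the indirect pathway, were lowest, at 0.640 to 2.28 and 0.627 to 2.07 FPKM. In whole tissue, more cells of a type and more RNA per cell cannot be told apart.

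Over the 9 mice the highest value was 3.55 times the lowest for Drd2, 3.30 times for Adora2a, 2.67 times for Penk and 2.06 times for Rgs9. The other 5 markers varied less, from 1.74 times for Drd1 down to 1.41 times for Pdyn. The highest values were held by 4 of the mice. WT_ST mouse 3 held the highest value of Drd2, Adora2a and Rgs9, WT_ST mouse 2 that of Drd1 and Ppp1r1b, CT mouse 2 that of Pdyn and Pde10a, and KO_ST mouse 1 that of Penk and Tac1.

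**Figure D1:**
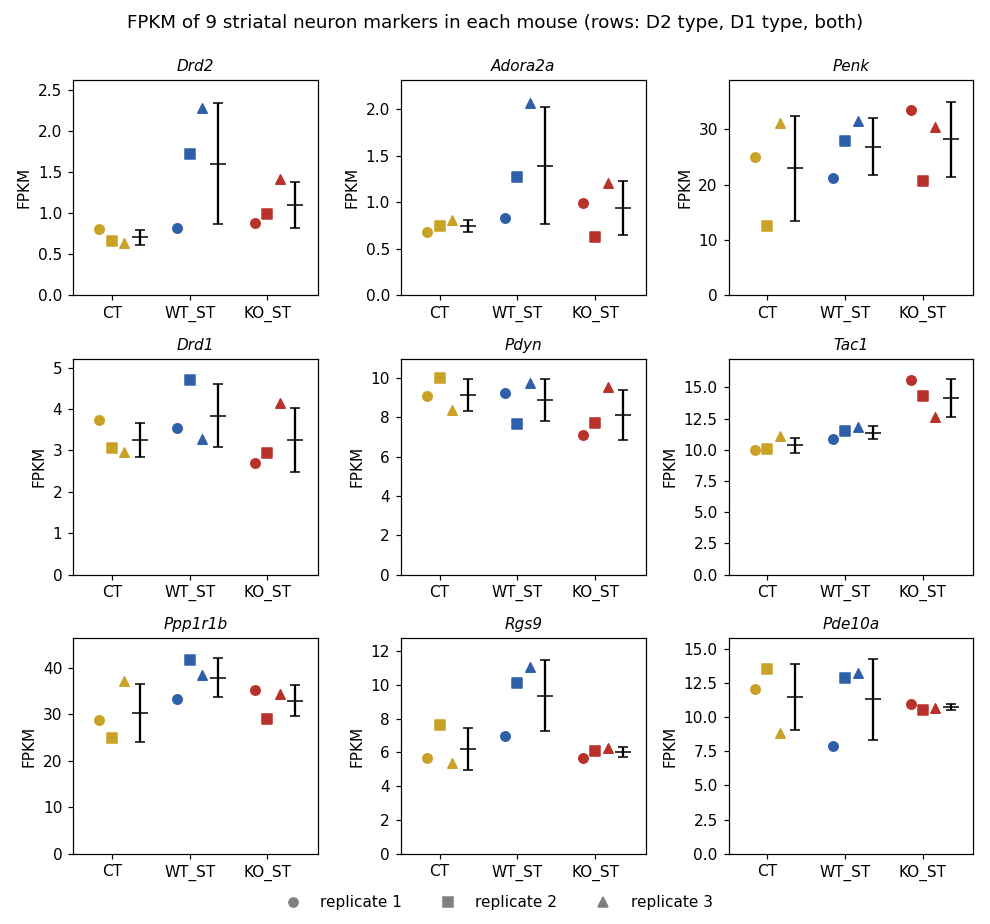
FPKM of the 9 markers (vertical axes, each starting at 0) in every mouse of CT, WT_ST and KO_ST, with marker shape giving the replicate number and black bars the group mean ± SD over 3 mice. Drd2, Adora2a and Rgs9 are highest in WT_ST mice 2 and 3, while WT_ST mouse 1 sits beside the CT mice.

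Drd2, the receptor through which dopamine lowers cyclic AMP in indirect-pathway neurons (chr9:49340360-49408177, GRCm38.p6), had the widest ratio of highest to lowest FPKM. Its FPKM was 0.809, 0.665 and 0.640 in the CT mice, 0.818, 1.71 and 2.28 in the WT_ST mice and 0.883, 0.983 and 1.41 in the KO_ST mice. The groups did not overlap when either stressed group was set against CT, but WT_ST mouse 1 was above the highest CT mouse by a margin of 0.818 to 0.809 only, and WT_ST and KO_ST overlapped. Averaged by group, Drd2 was at 0.705 ± 0.0912 in CT, 1.60 ± 0.734 in WT_ST and 1.09 ± 0.279 in KO_ST (SD, n = 3 mice each, as for the other group values). On the log2 scale of quantile-normalized FPKM + 1, Drd2 was 0.59 higher in WT_ST than in CT (± 0.195 standard error, limma adjusted p = 0.634, adjusted by Benjamini-Hochberg over all tested genes). It was 0.32 higher in KO_ST than in CT (± 0.0987 standard error, limma adjusted p = 0.499). The comparison of KO_ST with WT_ST gave a difference of -0.28 that missed the criterion. Both differences from CT were thus calls that did not pass the adjusted threshold. The added 1 shrinks the change of so low a gene, and with edgeR on the read counts the 2 differences from CT were 1.18 and 0.66 on the log2 scale. The first was not called without WT_ST mouse 2 (0.55), nor the second without KO_ST mouse 3 (0.22).

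Counting error was part of the spread at this level, and its size can be given from the reads. Drd2 drew 50 to 79 reads in the CT mice, 64, 132 and 160 in the WT_ST mice and 62, 72 and 115 in the KO_ST mice. In reads per 1000000 reads on genes (RPM), WT_ST mouse 3 had 3.61 (95% Poisson interval 3.07 to 4.21), WT_ST mouse 2 had 2.73 (2.28 to 3.23) and KO_ST mouse 3 had 2.25 (1.85 to 2.70). These 3 intervals lay above those of all CT mice, whose upper ends were 1.61, 1.37 and 1.35. WT_ST mouse 1 (1.001 to 1.66) could not be told from CT mouse 1 at 1.29. The intervals cover counting error alone.

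Adora2a (chr10:75316877-75334792), the adenosine receptor that raises cyclic AMP in the same neurons, was called in 1 comparison. It measured 0.683, 0.741 and 0.814 FPKM in CT, 0.836, 1.27 and 2.07 in WT_ST and 0.988, 0.627 and 1.21 in KO_ST. WT_ST mice 2 and 3 were the highest of the 9, KO_ST mouse 2 was the lowest, and CT and WT_ST did not overlap in FPKM although WT_ST mouse 1 was barely above CT mouse 3. In RPM that margin turned, with 2.15 in WT_ST mouse 1 and 2.17 in CT mouse 3. Its means were 0.746 ± 0.0656 in CT, 1.39 ± 0.626 in WT_ST and 0.941 ± 0.293 in KO_ST. The log2 difference of WT_ST from CT was 0.45 (± 0.168 standard error, limma adjusted p = 0.635), which made it a call. With edgeR on the read counts, without the added 1, it was 0.87 on the log2 scale. Neither KO_ST against CT (0.17) nor KO_ST against WT_ST (-0.28) was called. Without WT_ST mouse 3 the difference of WT_ST from CT was 0.26 and was not called, and with WT_ST mouse 2 or any of the CT mice left out it was 0.43 to 0.48 and was not called either.

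**Figure D2:**
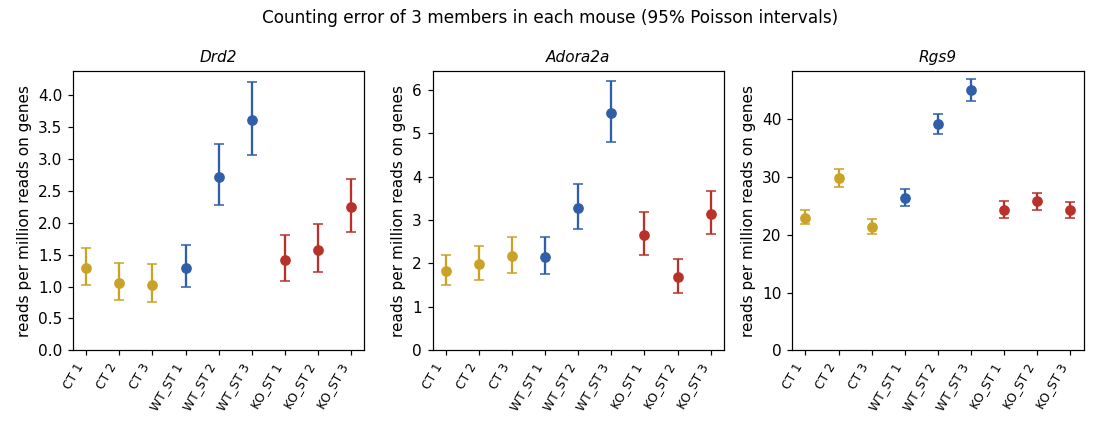
RPM, the reads per 1000000 reads on genes (vertical axes, from 0) for Drd2, Adora2a and Rgs9 in each mouse, with 95% Poisson intervals that cover counting error only. For all 3 genes, WT_ST mouse 3 is above every CT and KO_ST interval, and WT_ST mouse 1 lies within the range of the CT intervals.

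Penk (chr4:4133536-4138815), the enkephalin precursor and the third marker of indirect-pathway neurons, was not called in any comparison. The CT mice had 25.1, 12.5 and 31.2 FPKM, the WT_ST mice 21.3, 27.9 and 31.5 and the KO_ST mice 33.5, 20.6 and 30.5. CT mouse 2 was lowest by a wide margin, and each group spread over most of the range of the others, with means of 22.9 ± 9.52, 26.9 ± 5.16 and 28.2 ± 6.72. The difference of WT_ST from CT was 0.30 with all mice and -0.07 without CT mouse 2, and the difference of KO_ST from CT was 0.36 with all mice and -0.0037 without CT mouse 2.

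Among the direct-pathway markers, Drd1 (chr13:54051183-54055658), the receptor through which dopamine raises cyclic AMP, showed no called difference. Its FPKM was 3.72, 3.05 and 2.96 in CT, 3.54, 4.70 and 3.27 in WT_ST and 2.70, 2.93 and 4.14 in KO_ST. WT_ST mouse 2 was highest, KO_ST mouse 3 came next, and the 3 groups overlapped. WT_ST mouse 3, highest for Drd2 and Adora2a, was at the median of the 9 mice for Drd1. Pdyn (chr2:129686549-129699938), the dynorphin precursor, was flatter still, at 9.07, 9.99 and 8.37 FPKM in CT, 9.23, 7.66 and 9.74 in WT_ST and 7.10, 7.70 and 9.56 in KO_ST. Its groups overlapped in every comparison, and its log2 differences were -0.02 for WT_ST against CT, -0.12 for KO_ST against CT and -0.10 for KO_ST against WT_ST.

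Tac1 (chr6:7555061-7562978), which encodes the precursor of substance P, was the marker with the smallest spread inside the groups and the one in which KO_ST stood apart. Its FPKM was 9.94, 10.03 and 11.1 in CT, 10.8, 11.5 and 11.8 in WT_ST and 15.6, 14.3 and 12.6 in KO_ST. Every KO_ST mouse was above every CT and WT_ST mouse, while CT and WT_ST overlapped. The means were 10.3 ± 0.630 in CT, 11.4 ± 0.489 in WT_ST and 14.2 ± 1.51 in KO_ST, and the difference between the first 2 of these missed the criterion (a log2 difference of 0.14, adjusted p = 0.643 from limma). In KO_ST, Tac1 was 0.44 higher than in CT on the log2 scale (± 0.0827 standard error, limma adjusted p = 0.326). Against WT_ST it was 0.30 higher (± 0.0775 standard error, limma adjusted p = 0.673). The mouse with the highest Tac1, KO_ST mouse 1, also had the highest Penk, was above the median of the 9 mice for Ppp1r1b and Adora2a, at the median for Drd2, below it for Rgs9 and the lowest of all for Drd1 and Pdyn, the other direct-pathway markers. Without KO_ST mouse 1 the difference from WT_ST was 0.24 and was not called. With no unstressed Fkbp5-/- mice among the samples used here, genotype and the response of that genotype to restraint cannot be told apart.

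Of the markers shared by both classes, Rgs9 (chr11:109225348-109298181) differed most between groups. The regulator measured 5.66, 7.63 and 5.36 FPKM in CT, 6.99, 10.1 and 11.0 in WT_ST and 5.68, 6.10 and 6.29 in KO_ST. WT_ST mice 2 and 3 were above all other mice, WT_ST mouse 1 was below CT mouse 2, and WT_ST did not overlap with KO_ST. The CT mean was 6.22 ± 1.23, the WT_ST mean 9.38 ± 2.12 and the KO_ST mean 6.02 ± 0.311. On the log2 scale Rgs9 was 0.54 higher in WT_ST than in CT (± 0.176 standard error, limma adjusted p = 0.634). In KO_ST it was 0.53 lower than in WT_ST, a log2 difference of -0.53 (± 0.141 standard error, limma adjusted p = 0.690). With WT_ST mouse 2, WT_ST mouse 3, CT mouse 1 or CT mouse 3 left out, the difference of WT_ST from CT was 0.43 to 0.49 and was not called. CT and KO_ST differed by 0.01, a difference whose sign turned to -0.03 without quantile normalization. Rgs9 drew enough reads for counting error to be small, with 45.0 RPM (95% Poisson interval 43.1 to 47.1) in WT_ST mouse 3.

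Ppp1r1b (chr11:98348406-98357796) had 28.7, 24.9 and 37.1 FPKM in CT, 33.3, 41.6 and 38.4 in WT_ST and 35.2, 29.0 and 34.4 in KO_ST. WT_ST mice 2 and 3 were again the highest, followed by CT mouse 3, and all groups overlapped. DARPP-32 transcript was 0.32 higher in WT_ST than in CT without meeting the criterion (adjusted p = 0.643 from limma), and it met it without CT mouse 3 (0.47), without WT_ST mouse 1 (0.42), in the fit of all 9 mice (0.32) and in DESeq2 (0.33). Pde10a (chr17:8525187-8986648) had 12.1, 13.6 and 8.85 FPKM in CT, 7.91, 12.8 and 13.2 in WT_ST and 11.0, 10.6 and 10.7 in KO_ST. WT_ST mouse 1 was the lowest and CT mouse 2 the highest, the KO_ST mice lay close together (SD 0.220, against 2.41 in CT and 2.96 in WT_ST), and the log2 differences between groups were -0.02, -0.05 and -0.03.

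**Figure D3:**
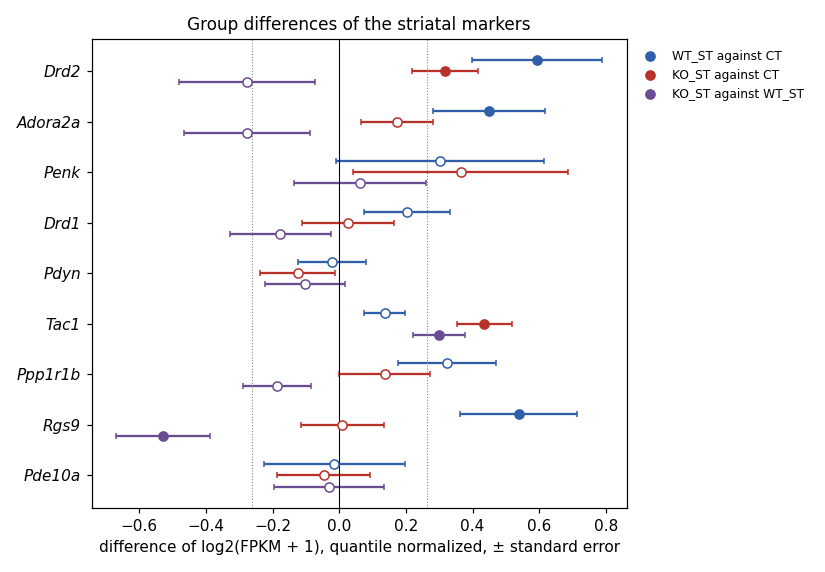
Differences between groups for each marker (horizontal axis, quantile-normalized log2 of FPKM + 1, with bars of ± 1 standard error from limma), filled where the marker was called and with dotted lines at a fold change of 1.2. Drd2, Adora2a and Rgs9 were called for WT_ST against CT, Drd2 and Tac1 for KO_ST against CT, and Rgs9 and Tac1 for KO_ST against WT_ST.

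In all, 3 of the 9 markers were called for WT_ST against CT, each of them higher, where 2.47% of all tested genes were called and 1.16% were called higher. For KO_ST against CT, 2 of 9 were called, both higher, where 3.56% of tested genes were called and 1.54% were called higher. For KO_ST against WT_ST, 1 was called higher and 1 lower, where 2% of tested genes were called, 0.946% higher and 1.05% lower. Groups did not overlap for 2 of the 9 markers in each comparison, against 14%, 15.8% and 11% of all tested genes. Both were higher in WT_ST against CT and in KO_ST against CT, as for 7.54% and 7.94% of tested genes, and in KO_ST against WT_ST 1 was higher and 1 lower, as for 4.99% and 5.97%. No marker passed an adjusted p under 0.05 in limma with all mice of the compared groups, where 0.0348%, 0.0626% and 0.153% of tested genes did, and Rgs9 in KO_ST against WT_ST passed it in limma without WT_ST mouse 1 (a log2 difference of -0.70, adjusted p = 0.0460). At p under 0.05 without adjustment there were 3, 2 and 2 markers by limma, beside 7.86%, 9.46% and 5.82% of tested genes. In edgeR 0 markers passed the adjusted threshold, and in DESeq2 1 did, Tac1 in KO_ST against CT (adjusted p = 0.0140 from DESeq2, which passed 113 of the 14370 tested genes in that comparison). The mean of WT_ST was above that of CT for 7 of 9 markers, with a median log2 difference of 0.30 beside 0.0034 over all tested genes. The corresponding values were 7 of 9 and 0.14 beside 0.0024 for KO_ST against CT, and 2 of 9 and -0.18 beside -0.0015 for KO_ST against WT_ST. Each group enters 2 of the 3 comparisons, so the counts are not independent of each other.

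The markers were also among the more variable genes of the tissue within a group. The standard deviation of log2 values within groups was 0.458 for Penk, higher than in 98.7% of the tested genes, whose median was 0.0911. It was 0.275 for Pde10a (above 95.4%), 0.267 for Drd2 (95.1%), 0.245 for Adora2a (94.0%) and 0.227 for Rgs9 (92.96%). Drd1 at 0.207, Ppp1r1b at 0.204 and Pdyn at 0.163 followed, above 91.1%, 90.7% and 84.2% of genes. Tac1, at 0.0957, was close to the middle of all genes (53.7%).

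To set the mice side by side, each marker's log2 value was standardized over the 9 mice and the 9 markers were averaged, giving a striatal index in units of SD. The index was -0.344, -0.524 and -0.536 in the CT mice, -0.312, 0.705 and 1.02 in the WT_ST mice and -0.0748, -0.363 and 0.426 in the KO_ST mice. WT_ST mice 3 and 2 were highest, KO_ST mouse 3 was the next, and the other 6 mice lay below 0, so that the groups overlapped. The group means were -0.468 ± 0.108 in CT, 0.472 ± 0.697 in WT_ST and -0.0042 ± 0.399 in KO_ST, and no test was applied to them because the markers had been picked together. In WT_ST mice 2 and 3 and in KO_ST mouse 3, 7 of 9 markers were above their own mean over the mice. That number was 1 in KO_ST mouse 2 and 2 to 4 in the other 5 mice.

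Whether the markers varied together from mouse to mouse was asked over their 36 pairs. Pearson's r was positive for 27 pairs, with a median of 0.25 and a range of -0.61 (Pdyn with Tac1) to 0.91 (Drd2 with Adora2a). For Drd2 and Adora2a, r was 0.907 (exact permutation p = 0.002, adjusted p = 0.057 over the pairs) and Spearman's rho 0.683 (exact permutation p = 0.050). Without the 2 mice farthest from the median of Drd2 their r was 0.658, and on deviations from the group means it was 0.834 (exact permutation within groups, p = 0.120). Drd2 and Rgs9 had an r of 0.801 (exact permutation p = 0.013, adjusted p = 0.138), 0.084 without the 2 farthest mice and 0.733 within groups. Adora2a and Rgs9 had 0.766 (exact permutation p = 0.015, adjusted p = 0.138), 0.058 without the 2 farthest and 0.591 within groups. Leaving out the mice farthest on the first gene narrows its range, which can lower r by itself. Ppp1r1b and Penk gave 0.814 with all mice (exact permutation p = 0.006, adjusted p = 0.113), 0.755 without the 2 farthest and 0.889 within groups. No pair passed an adjusted p under 0.05, and 5 of 36 had an exact permutation p under 0.05. Each marker forms part of the index, and its r with it ranged from 0.979 for Drd2 and 0.937 for Adora2a down to 0.171 for Tac1 and 0.0843 for Pdyn.

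A second list of 22 genes of striatal projection neurons, of which 18 were tested, was read in the same way. The list holds, among others, the tyrosine phosphatase Ptpn5, its most abundant gene, the small GTPase Rasd2 and the sodium channel subunit Scn4b. Its mean standardized value was 0.30 and 0.70 in WT_ST mice 2 and 3 and -0.41 in WT_ST mouse 1. In CT it was -0.05, -0.68 and -0.33, and in KO_ST 0.24, 0.21 and 0.02. WT_ST mouse 3 was thus highest and CT mouse 2 lowest, and the KO_ST mice were not in the order the 9 markers gave. The sum of the listed genes ranged from 258 to 281 FPKM in CT, 274 to 297 in WT_ST and 279 to 284 in KO_ST. Of its 4 untested genes, Drd3 was at 0 in all but 1 mouse, Isl1 did not exceed 0.083 FPKM and Ido1 0.231 FPKM. Six3, a transcription factor, had 4, 0 and 4 reads in the CT mice, 0, 13 and 30 in the WT_ST mice and 33, 2 and 11 in the KO_ST mice.

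By limma, of these 18 genes 1 was called for WT_ST against CT and 1 for KO_ST against CT, both times Rasd2 and both times higher. Rasd2 measured 17.4, 15.0 and 18.8 FPKM in CT, 19.6, 22.9 and 21.2 in WT_ST and 20.1, 20.9 and 21.7 in KO_ST. All stressed mice were above all CT mice for it. Scn4b was 3.86 FPKM in CT mouse 2 and 11.8 to 17.6 in the other mice, and was not called. Medians over the tested genes of the list were 0.08, 0.07 and 0.01 on the log2 scale for the 3 comparisons in the order above.

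Genes that work with the markers in dopamine and cyclic AMP signalling, and the receptors for their peptides, gave no call. Of 27 such genes 23 were tested, among them the G protein subunits Gnal and Gng7, adenylyl cyclase 5 (Adcy5), the protein kinase A subunit Prkaca, the D5 receptor Drd5 and the opioid receptors Oprd1 and Oprk1. The list overlaps with the second striatal list, as Drd3, Adcy5, Gng7, Pde1b and Ptpn5 are on both. None of the 23 was called in any of the 3 comparisons by limma, edgeR or DESeq2. At an unadjusted p under 0.05 alone there were 1, 0 and 0 of them by limma and 2, 1 and 0 by edgeR. Their median log2 differences were 0.02 for WT_ST against CT, 0.05 for KO_ST against CT and -0.02 for KO_ST against WT_ST, and their summed level was 1308 to 1374 FPKM in every mouse. Rgs4, the most abundant of them, is a regulator of the same family as Rgs9 and lay at 159 to 207 FPKM.

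Markers of other cells that a block of tissue can hold were read beside the striatal index. The 8 oligodendrocyte genes, which mark white matter and include Mbp, Mog, Mobp, Mag, Cnp, Mal and Cldn11, varied widely, with a summed level of 501 to 958 FPKM in CT, 540 to 854 in WT_ST and 578 to 751 in KO_ST. Their mean standardized value was 1.38 in CT mouse 3, 1.18 in WT_ST mouse 2 and 0.63 in WT_ST mouse 3, and was lowest in CT mouse 2 (-1.42) and CT mouse 1 (-0.96). Of the 3 mice with the highest striatal index, all 3 were thus above 0 for white matter, but CT mouse 3, the highest for white matter, had a striatal index of -0.536, close to the -0.524 of CT mouse 2, the lowest for white matter. Which of these 2 mice had the lower index depended on how it was made, with CT mouse 2 at -0.907 and CT mouse 3 at 0.0902 when FPKM was summed and rescaled to the spread of the index, and -0.68 and -0.33 by the mean standardized value of the second list. Of the 8, all 8 had a higher mean in WT_ST than in CT (median log2 difference 0.22), 6 in KO_ST than in CT (0.07) and 0 in KO_ST than in WT_ST (-0.15). None of the 8 was called or reached an unadjusted p under 0.05 in any comparison by limma, edgeR or DESeq2, and Mbp, which encodes myelin basic protein, was the most abundant. Their part in the differences of the striatal markers was not tested.

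**Figure D4:**
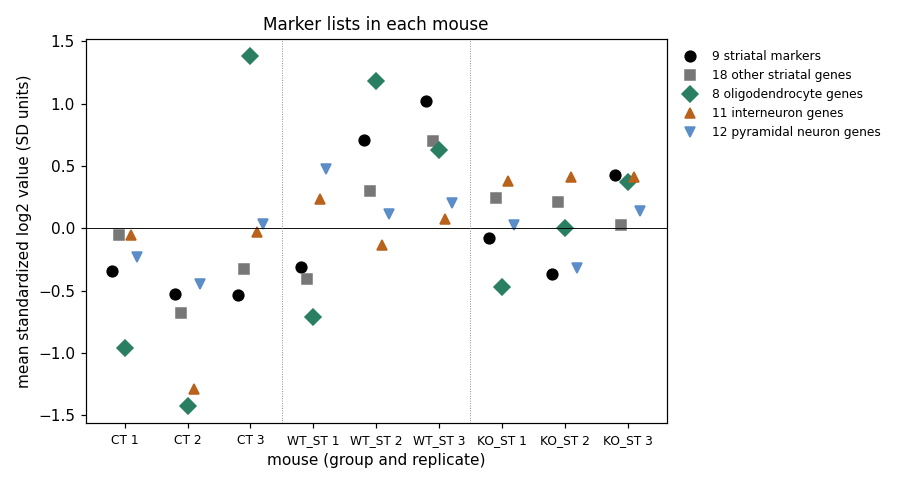
Mean standardized log2 value (vertical axis, in SD over the 9 mice) of the 9 striatal markers and of 4 other gene lists in each mouse (horizontal axis). The striatal markers are highest in WT_ST mice 2 and 3, the second striatal list is highest in WT_ST mouse 3, and the oligodendrocyte list is highest in CT mouse 3 and lowest in CT mouse 2.

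Pyramidal neuron genes stayed within 825 to 935 FPKM in sum, and 0 of 12 were called in any comparison by limma, edgeR or DESeq2 (0 at an unadjusted p under 0.05 by limma, and 1 in each comparison with KO_ST by edgeR). Of the 11 interneuron genes 8 were lowest in CT mouse 2, the mouse in which 17.1% of all tested genes were lowest, and 1 was called by limma, Pvalb, the calcium buffer of fast-spiking cells, which was higher in KO_ST than in CT. In that comparison 9 of the 11 had a higher mean in KO_ST, 4 of them were at p under 0.05 before adjustment by limma, and edgeR and DESeq2 called Slc32a1, the vesicular GABA transporter, as well as Pvalb, with 1 passing the adjusted threshold in DESeq2. Against CT in WT_ST, limma called 0 of the 11, with 2 at p under 0.05 before adjustment, edgeR called 0 and DESeq2 called Pvalb. Sst, the somatostatin precursor, was their most abundant gene. CT mouse 2 was also the mouse with the lowest Penk, Ppp1r1b and Scn4b and with the lowest value of 7 of the 8 oligodendrocyte genes. None of the 6 tested genes of the olfactory area (of 8) and of the 3 septal genes was called by limma. It found 1 septal gene at an unadjusted p under 0.05 (KO_ST against CT). For WT_ST against CT, edgeR and DESeq2 called Cdhr1. For KO_ST against WT_ST, edgeR called Zic1 and Zic4, and DESeq2 called Zic1. KO_ST mouse 1 was highest for all 3 septal genes, as for 11.9% of all tested genes. Their mean standardized value was 1.79 in that mouse and 0.66 in KO_ST mouse 2, the next. The olfactory list was also highest in KO_ST mouse 1, at 0.81. Whether these values bear on its Tac1 and Penk was not tested. Among 5 choroid plexus and ependymal genes 2 were tested, and Foxj1, a transcription factor of ciliated cells, was higher in both stressed groups than in CT. It measured 0.376, 0.224 and 0.413 FPKM in CT, 0.795, 0.838 and 0.815 in WT_ST and 0.627, 0.974 and 0.613 in KO_ST, while Ttr, which marks choroid plexus, did not exceed 0.366 FPKM.

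Among tested genes outside the 9 markers, those most like the striatal index over the 9 mice were Snx25 (r = 0.955), Igfbpl1 (0.952), Cd4 (0.928), Thbs4 (0.908) and Nek2 (0.906). All but Snx25, at 12.5 to 14.0 FPKM, were low, and Thbs4, the next highest, reached 2.39 FPKM. The genes that ran most against the index were Tnfrsf8 (r = -0.947), Trim8 (-0.934), Acbd4 (-0.931), Mlycd (-0.917) and Wdr73 (-0.915). These are the extremes of 14370 genes ranked over 9 mice and carry no test.

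Pde10a lies on chromosome 17, as does Fkbp5, which starts 19.4 Mb beyond its end. Within 2 Mb of Pde10a, 22 other genes were tested, and their values are given because the marker sits among them. None was called for WT_ST against CT by limma, edgeR or DESeq2 (0 of 22, with 1 at an unadjusted p under 0.05 by each), whereas by limma 8 were called for KO_ST against CT and 8 for KO_ST against WT_ST, of which 3 and 4 passed an adjusted p under 0.05. In KO_ST against WT_ST the log2 difference was -0.89 for Tmem181c-ps, -0.62 for Rps6ka2, a ribosomal S6 kinase, -0.60 for Gm16702 and -0.58 for Rsph3b. It was -0.54 for Dynlt1c and -0.50 for Dynlt1f, and it was 0.90 for Fndc1 and 0.47 for Tagap. The Dynlt1 genes and Tmem181c-ps have near-identical copies, so their counts are uncertain. Genes of like name lie in the window for Rsph3b and Tagap as well, Rsph3a (-0.18 in the same comparison) and Tagap1 (-0.26). By limma neither Rsph3a nor Tagap1 was called, while edgeR and DESeq2 called Tagap1 in that comparison. Whether reads were shared within these pairs was not tested. Pde10a itself differed by -0.03. The called genes all lay on the side of Pde10a away from Fkbp5. Whether they differ in sequence between the genotypes was not tested.

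**Figure D5:**
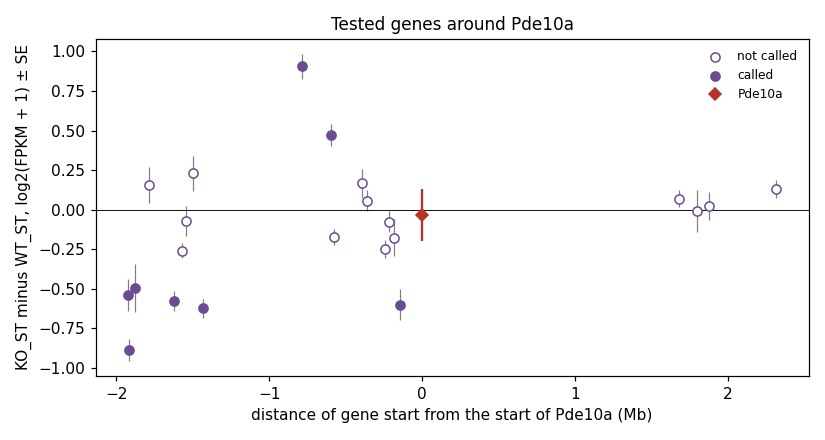
Difference of KO_ST from WT_ST (vertical axis, log2 of FPKM + 1, ± standard error from limma) for Pde10a and the 22 other tested genes around it, against the distance of each gene's start from that of Pde10a in Mb (horizontal axis). The 8 called genes, filled, reach from -0.89 to 0.90, and Pde10a, the red diamond, is at -0.03.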

How the data were processed

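RNA of the medial prefrontal cortex from 9 mice in 3 groups was analysed, with groups and replicate numbers from the sample labels. Per the methods and the submitters' processing notes, stranded mRNA libraries were aligned to GRCm38 with HISAT2 2.1.0 and Bowtie2 2.3.4.1 and quantified with StringTie 1.3.4d. The authors deposited raw read counts and FPKM for each gene, the latter corrected for the length of the transcript and the depth of the library. How reads were assigned to genes is not given in the sources used here.

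FPKM was increased by a pseudocount of 1, log2 transformed and quantile normalized. Genes averaging at least 30 reads were tested with limma 3.58.1 (mean-variance trend) in R 4.3.3, on the mice of the compared groups. Calls required a fold change above 1.2 and p under 0.05 before adjustment, with Benjamini-Hochberg adjustment over all 14370 tested genes beside it. The study's own per-gene test was replaced by limma, as 3 mice estimate the spread poorly. The labels do not state more than 1 library per mouse, so p-values rest on the spread between 3 mice. Alternatives were other pseudocounts, filters and normalizations, an unmoderated test, edgeR 4.0.16 and DESeq2 1.42.0 on counts, and each mouse left out. Exact permutation tests over mice used numpy 2.4.6, and the Poisson intervals used scipy 1.17.1. The tests were tried first on simulated counts.

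The 9 markers, the other gene lists and the tests were chosen with earlier results of these data known. Genes named are the markers, each called gene and the most abundant gene of every list, the 5 most and 5 least correlated with the index, called neighbours of Pde10a and Fkbp5. Not every gene that this selects is reported here. Scn4b, Pde1b, the untested genes of the second striatal list, Foxp2, Slc32a1, Cdhr1, Zic1, Zic4 and Ttr were named after their values were seen. So were Rsph3a, Tagap1 and the example genes of the signalling list. Same-numbered mice of different groups did not deviate together (mean correlation of deviations -0.0101, range -0.259 to 0.234), so numbers were not used as pairs. Gene positions and promoter sequences are from RefSeq (GRCm38.p6).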

Additional observations from a re-analysis of the deposited data

How the results depend on the processing

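Tac1 in KO_ST against CT and Rgs9 in KO_ST against WT_ST were called under all 16 alternatives tried for them, Tac1 in KO_ST against WT_ST under 15 of 16, Drd2 in WT_ST against CT and in KO_ST against CT under 13 of 15 each, Rgs9 in WT_ST against CT under 11 of 16 and Adora2a in WT_ST against CT under 8 of 15. For WT_ST against CT, 3 markers were called, 1 with a minimum mean FPKM of 5, which removes Drd1, Drd2 and Adora2a, 0 with the unmoderated test, and 4 with all 9 mice in one fit and with DESeq2, both adding Ppp1r1b. With 1 mouse left out the number was 0 to 4. It was 0 without WT_ST mouse 2 and 1 without WT_ST mouse 3 (Drd2, 0.41) or CT mouse 1, and 4 without WT_ST mouse 1. For KO_ST against CT, 2 were called, 1 with the FPKM minimum, 1 with all 9 mice in one fit and 1 to 3 with a mouse left out. For KO_ST against WT_ST, 2 were called, and 1 (without KO_ST mouse 1) to 5 (without WT_ST mouse 1) with a mouse left out. Without quantile normalization, Drd1 and Rgs9 in KO_ST against CT, both uncalled, turned to -0.0068 and -0.027.

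The sign of some uncalled differences turned with 1 mouse left out. Their ranges over the 6 such fits were, in WT_ST against CT, -0.066 to 0.56 for Penk, -0.086 to 0.071 for Pdyn and -0.18 to 0.20 for Pde10a. In KO_ST against CT they were -0.11 to 0.12 for Drd1, -0.083 to 0.15 for Rgs9, -0.0037 to 0.62 for Penk and -0.22 to 0.074 for Pde10a, and in KO_ST against WT_ST -0.10 to 0.26 for Penk and -0.24 to 0.083 for Pde10a.

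Of all tested genes 355, 512 and 287 were called in the 3 comparisons (WT_ST against CT, KO_ST against CT, KO_ST against WT_ST). A pseudocount of 0.1 gave 544 for the first and 445 for the last, the FPKM minimum 172, 247 and 118, the unmoderated test 164, 248 and 138, edgeR without a filter 700, 843 and 544, edgeR 535 for the first and DESeq2 552 for the first. Leaving out 1 mouse gave 277 to 542, 410 to 734 and 245 to 477. Without quantile normalization the share of calls that were higher went from 46.8% to 34.1% for WT_ST against CT and from 43.2% to 28.5% for KO_ST against CT, and edgeR gave 33.1% for the first. With the replicate number as a block, 399, 562 and 279 genes and 3, 3 and 2 markers were called, although the numbers do not pair the mice. With the striatal index as a covariate in the fit of all 9 mice, 443, 552 and 284 genes were called, against 342, 544 and 263 without it, and 0, 5 and 8 against 3, 12 and 15 passed an adjusted p under 0.05. The group means of the striatal index, -0.468 in CT, 0.472 in WT_ST and -0.0042 in KO_ST, were -0.482, 0.269 and 0.213 with the second striatal list rescaled to the same spread, so that WT_ST and KO_ST were then close. Under its other alternatives CT ranged from -0.515 to -0.373, WT_ST from 0.347 to 0.527 and KO_ST from -0.136 to 0.063. The reads behind Drd2 and Adora2a, at most 160 and 242 per mouse, limit what can be said of single mice.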
